A study of Mus musculus with 11 samples.

Results

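The genes described here are 33 markers of the vessel wall: 21 of endothelium and 12 of mural cells, of which 9 mark pericytes and 3 mark smooth muscle. They were taken by gene symbol from the 39017 Ensembl gene identifiers of the count table, named through GENCODE M21, and all 33 had enough counts to be tested in every comparison. Ribosomes carrying an HA tag were pulled down from the hippocampus, and the RNA on them was counted in 11 female GFAP-Cre:RiboTag mice of C57BL/6J background aged 12 to 14 months, with 1 library for each mouse. WT (sham) mice (n = 3, numbered F1, F3 and F4) had intact ERβ (Esr2) and sham surgery. ERβ cKO (sham) mice (n = 4, F1, F3, F4 and F5) had sham surgery and homozygous floxed Esr2 alleles, deleted by the same Cre. WT (GDX) mice (n = 4, F1 to F4) had intact ERβ and lost their ovaries at 2 months of age. All 3 groups carried the Cre under the mouse Gfap promoter and the tagged ribosomal protein. The paper's methods list separate breeding pairs for astrocyte RiboTag mice with and without floxed Esr2. ERβ cKO and WT mice therefore also differed in breeding line. All mice were perfused with saline and then fixative before the hippocampus was taken. The promoter marks astrocytes rather than vessel cells, and any RNA of other cells in the precipitate was counted with that of astrocytes, and fewer cells of a type and less RNA per cell cannot be told apart in these bulk libraries.

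Brain capillaries are lined by endothelial cells that are sealed by tight junctions and carry a distinct set of transporters, which together form the blood-brain barrier. Pericytes sit in the capillary basement membrane and are recruited by PDGF-B, while arterioles are wrapped by contractile smooth muscle. Astrocyte endfeet cover almost all of this vessel surface in the hippocampus, where they release factors that act on the barrier.

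The upstream DNA of 5 members is shown because 4 of them were among the genes that were higher in ERβ cKO (sham) than in WT (GDX), while Rgs5, the most abundant mural gene, was not called. Each is the 250 bases before the first listed transcript start in the RefSeq table for GRCm38.p6, which is the mm10 build of the counts, written in the direction of transcription. Capitals mark every match, on either strand, to an ETS motif AGGAAG, a GC box GGGCGG or the core AGGTCA of the estrogen response element (ERE). The Eng window lies on chr2:32646345-32646594 (+), Slco1a4 on chr6:141856221-141856470 (-), Ocln on chr13:100552719-100552968 (-), Ly6c1 on chr15:75048838-75049087 (-) and Rgs5 on chr1:169655251-169655500 (+).
Eng: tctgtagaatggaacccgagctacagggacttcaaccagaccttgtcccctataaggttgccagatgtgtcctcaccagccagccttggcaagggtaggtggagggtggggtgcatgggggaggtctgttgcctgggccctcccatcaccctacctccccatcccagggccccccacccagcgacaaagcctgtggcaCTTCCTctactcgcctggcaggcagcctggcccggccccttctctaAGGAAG
Slco1a4: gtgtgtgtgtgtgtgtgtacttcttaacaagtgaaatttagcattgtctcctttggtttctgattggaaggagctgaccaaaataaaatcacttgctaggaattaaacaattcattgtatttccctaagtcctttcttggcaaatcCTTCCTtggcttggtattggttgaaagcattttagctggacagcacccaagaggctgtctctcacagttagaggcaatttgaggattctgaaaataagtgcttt
Ocln: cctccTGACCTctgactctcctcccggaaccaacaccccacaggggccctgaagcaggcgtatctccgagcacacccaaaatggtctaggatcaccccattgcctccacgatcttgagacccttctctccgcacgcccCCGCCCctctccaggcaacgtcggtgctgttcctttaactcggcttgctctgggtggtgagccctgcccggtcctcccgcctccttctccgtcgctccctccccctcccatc
Ly6c1: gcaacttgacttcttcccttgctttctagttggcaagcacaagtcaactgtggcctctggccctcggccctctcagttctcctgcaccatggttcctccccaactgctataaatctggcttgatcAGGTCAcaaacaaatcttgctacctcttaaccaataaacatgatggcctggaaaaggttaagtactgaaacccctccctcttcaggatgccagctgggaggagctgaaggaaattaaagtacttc
Rgs5: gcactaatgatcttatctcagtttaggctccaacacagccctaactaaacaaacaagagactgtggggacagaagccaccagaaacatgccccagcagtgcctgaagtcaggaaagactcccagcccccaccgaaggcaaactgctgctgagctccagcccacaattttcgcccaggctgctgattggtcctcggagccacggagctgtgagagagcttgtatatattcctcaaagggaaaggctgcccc

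Such windows were found for 22 of the 33 members. ETS factors are transcription factors used by endothelial genes, and AGGAAG was present in the windows of 8 of 15 endothelial members, 0 of 7 mural members and 29.2% of the 27025 genes in the table. Eng and Slco1a4 hold it, while Ocln, Ly6c1 and Rgs5 do not. GC boxes stood in 5 of 15 endothelial and 3 of 7 mural windows, against 32.9% of all genes. The ERE core is 1 arm of the palindrome that estrogen receptors bind and is also used by other nuclear receptors. It was found in 5 of 15 endothelial windows, including those of Ocln and Ly6c1, 0 of 7 mural windows and 13.8% of all. A CArG box, the motif of serum response factor, was searched only as CCWWWWWWGG, where W is A or T. This exact form was in none of the 22 windows and in 1.4% of all. Sites with a differing base were not counted, and Acta2 was the only smooth muscle gene with a window. These matches describe letters in a short window, and no binding was measured.

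Libraries held 16956233 to 18190968 counts (median 17685486), so depth hardly differed. Esr2 itself had at most 4 counts in any WT (sham) or ERβ cKO (sham) library and at most 7 in WT (GDX), which was too few to check the deletion, and a whole-gene count would not isolate the deleted part. The 10 astrocyte markers summed to 24876 to 28740 counts per 1000000 of the library (CPM) in WT (sham), 30320 to 36526 in WT (GDX) and 21791 to 26194 in ERβ cKO (sham), against 271 to 500 CPM for all 33 vascular genes in WT (sham), 290 to 423 in WT (GDX) and 486 to 538 in ERβ cKO (sham). WT (sham) F4 stood apart: its 13 choroid plexus genes summed to 219.8 CPM and its 5 blood genes to 25.7 CPM, against at most 128.5 and 7.63 CPM in any other library. The choroid plexus genes summed to 64.7 CPM or more in WT (sham) and to 29.0 to 39.1 CPM in the other 8 libraries, with Otx2 at 0 throughout ERβ cKO (sham) and Kcnj13 at 0 throughout WT (GDX). F4 was also the highest of WT (sham) for 10 oligodendrocyte genes, at 761.6 CPM in sum against 557.3 and 509.5, and for 10 microglial genes, at 66.3 CPM against 52.9 and 50.7. Both sums lay within the range of ERβ cKO (sham), at 499.9 to 815.5 and 51.4 to 70.9 CPM. The part of the cells of these lists in the vascular values was not tested.

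Per kilobase of exon, the most abundant member over the 11 libraries was Mfsd2a at 24.4 CPM per kb, followed by Tjp1 at 12.0, Rgs5 at 11.6 and Cldn5 at 6.05. At the other end were Emcn at 0.279, Kcnj8 at 0.266, Icam2 at 0.223 and Anpep at 0.109 CPM per kb. Mfsd2a (24.3 to 96.7 CPM), Tjp1 (72.7 to 116 CPM) and Rgs5 (31.6 to 78.8 CPM) varied more between libraries than Tjp1 and Rgs5 differed per kilobase. Higd1b was the only member with 0 counts in a library (WT (sham) F3 and WT (GDX) F4), and its highest count was 18.

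The members varied most between WT (sham) mice. The median over the 21 endothelial genes of the SD of log2 CPM was 0.68 in WT (sham), 0.49 in WT (GDX) and 0.33 in ERβ cKO (sham), and over the 12 mural genes it was 0.84, 0.56 and 0.45. Within WT (sham), F4 had the highest value of its group for 17 of 21 endothelial and 11 of 12 mural genes, and F3 had the lowest for 12 and 9. WT (GDX) F4 was lowest of its group for 12 of 21 endothelial genes. ERβ cKO (sham) F5 was the highest of its group for 10 of 21 endothelial genes. Summed CPM of the endothelial genes ran from 193 to 364 in WT (sham), 219 to 322 in WT (GDX) and 359 to 402 in ERβ cKO (sham), so the sums of ERβ cKO (sham) lay above all of WT (GDX) and overlapped WT (sham) only through F4. Mural sums were 78.0 to 136 CPM in WT (sham), 70.8 to 118 in WT (GDX) and 124 to 150 in ERβ cKO (sham), with the same arrangement of the groups. Abundant genes weigh most in such sums: Tjp1 and Mfsd2a held 93.7 and 96.7 of the 279 CPM of WT (GDX) F3. Endothelial medians of log2 CPM were 1.94 to 3.44 in WT (sham), 2.01 to 2.70 in WT (GDX) and 3.19 to 3.52 in ERβ cKO (sham). Mural medians were 0.54 to 2.62, 0.36 to 1.92 and 1.89 to 2.26 in that order, so all groups overlapped there.

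**Figure D1:**
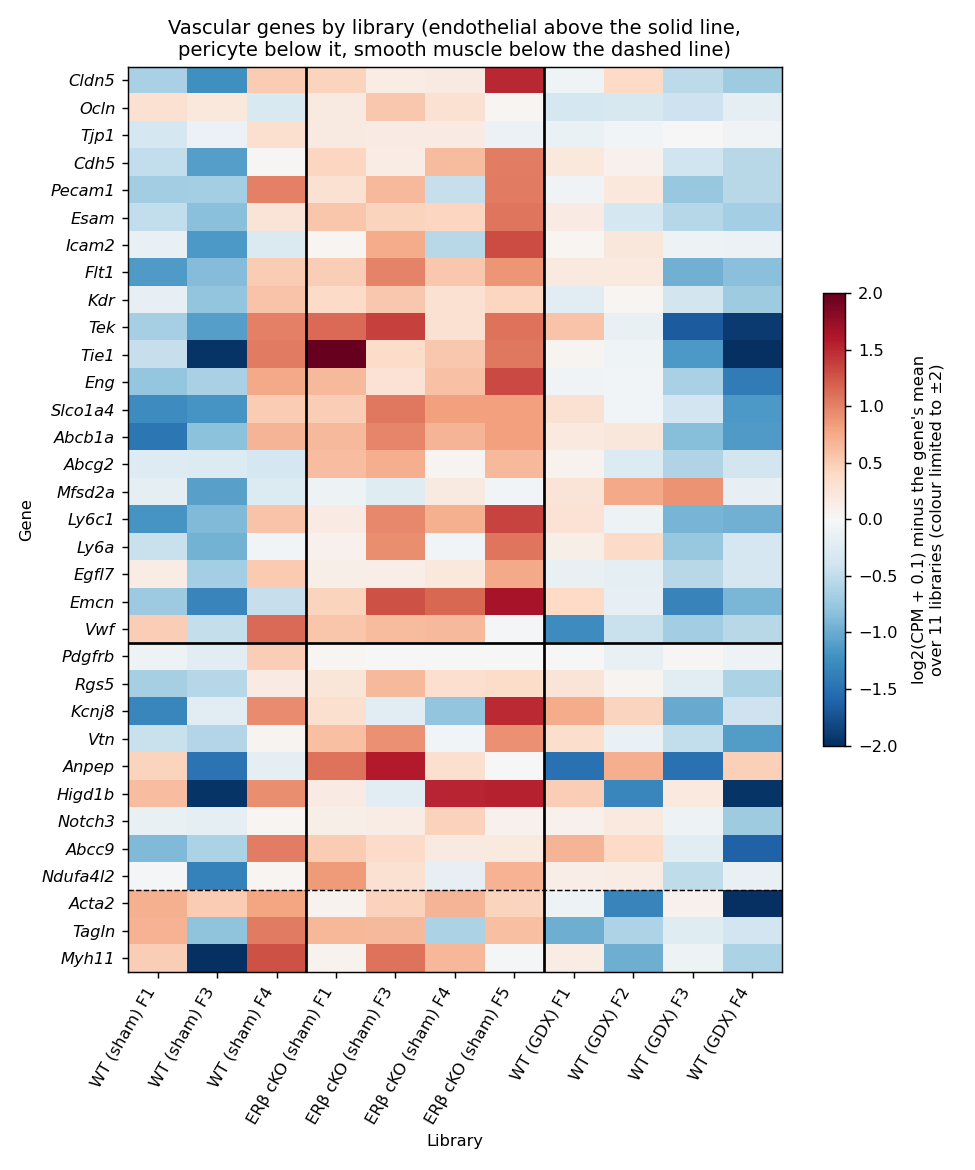
Colour shows log2(CPM + 0.1) of each of the 33 genes (vertical axis) in each of the 11 libraries (horizontal axis) minus that gene's mean over the libraries, with solid lines between groups and between endothelial and mural genes and a dashed line above the 3 smooth muscle genes. Most endothelial genes are red in the 4 ERβ cKO (sham) libraries and in WT (sham) F4, whose endothelial sum was 364 CPM, and blue in WT (sham) F3, whose sum was 193 CPM.

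ERβ cKO (sham) and WT (GDX) are both loss-of-function groups, of the astrocyte receptor and of the ovaries. Their direct comparison asks where they differ, but Esr2 genotype, breeding line and gonadectomy differ together and cannot be told apart. Endothelial genes were higher in ERβ cKO (sham): 11 of 21 passed the threshold (adjusted p under 0.1) and 0 were lower, with differences from 1.51-fold for Ocln to 3.08-fold for Emcn. They covered all 4 endothelial roles, with 2 of 7 junction genes, 2 of 5 receptors, 3 of 4 transporters and 4 of 5 surface or secreted genes. None of the 12 mural genes passed, although all 12 had positive differences. In the same quasi-likelihood test of edgeR, 1.93% of the 19759 genes tested were called higher and 2.22% lower. The median log2 fold change was 0.85 over endothelial genes and 0.73 over mural genes, against 0.00 over all genes tested. Of the 33 members 32 had a positive difference, against 50.2% of all genes, and Mfsd2a was the exception. In 11 members every ERβ cKO (sham) value lay above every WT (GDX) value, against 4.94% of all genes. Of the 12 mural genes, 5 had an unadjusted p under 0.05 (Rgs5, Vtn, Acta2, Tagln and Myh11), where 8.82% of all genes did so in that direction, and these 5 were called by DESeq2, with 3 called by the exact test of edgeR (Rgs5, Tagln and Vtn) and 4 by its likelihood ratio test (Rgs5, Acta2, Tagln and Vtn). Over all genes these tools called 5.05%, 3.65% and 3.96% higher. The number of members called was 1 (Vwf, of 104 genes called in all) without WT (GDX) F3, 3 without ERβ cKO (sham) F3, 4 without ERβ cKO (sham) F1, WT (GDX) F2 or WT (GDX) F4 and 5 with all 3 groups in 1 fit, whereas DESeq2 called 20 higher and 1 lower. Mural genes were called by the quasi-likelihood test when certain libraries were left out: Rgs5 and Vtn without WT (GDX) F1, Tagln and Vtn without ERβ cKO (sham) F4 and Myh11 without ERβ cKO (sham) F5, all higher in ERβ cKO (sham). Astrocyte markers moved the other way, with 8 of 10 called lower in ERβ cKO (sham) and a median of -0.48. Medians were 0.24 over 10 oligodendrocyte genes (9 positive, 0 called) and 0.33 over 6 genes of oligodendrocyte precursors (1 called higher, 1 lower). They were 0.10 over 10 microglial genes (6 positive, 0 called) and 0.04 over 12 neuronal genes (8 positive, 1 called higher). The part of these lists in the vascular values was not tested.

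ERβ cKO (sham) against WT (sham) sets the loss of ERβ in astrocytes against intact ERβ in gonadally intact mice. Breeding line differed together with genotype, so their effects cannot be told apart. No vascular gene passed the threshold by edgeR's quasi-likelihood test, which called 6 of 19938 genes in all (0.0301%). At an unadjusted p under 0.05 there were 12 members, all of them higher in ERβ cKO (sham): the endothelial genes Emcn, Abcg2, Cdh5, Esam, Ly6a, Ly6c1, Slco1a4, Abcb1a, Mfsd2a and Flt1 and the pericyte genes Vtn and Rgs5, where 3.24% of all genes were higher at that level. DESeq2 called 3 members (Abcg2, Emcn and Rgs5), the exact test 2 (Emcn and Rgs5) and the likelihood ratio test 4 (Emcn, Flt1, Rgs5 and Slco1a4), all higher, where they called 0.153%, 0.166% and 0.346% of all genes higher. The median log2 fold change was 0.97 over endothelial genes, with 20 of 21 positive, and 0.37 over mural genes, with 9 of 12 positive, against a median of 0.00 and 50.8% positive over all genes. Pericyte genes had a median of 0.72 and smooth muscle genes of -0.09. In 7 members (Esam, Cdh5, Abcg2, Emcn, Ly6a, Rgs5 and Notch3) the 4 ERβ cKO (sham) values lay above the 3 WT (sham) values, against 3.39% of all genes. Without WT (sham) F4, the library high in choroid plexus and blood genes, 9 members were called higher, of 67 genes called in all (Abcb1a, Emcn, Eng, Esam, Flt1, Ly6c1, Rgs5, Slco1a4 and Tek), and 1 was called without ERβ cKO (sham) F1 (Emcn) or F4 (Vtn). Without WT (sham) F4 the endothelial and mural medians were 1.39 and 1.09. Marker genes of other glia had positive medians in this comparison as well. The median was 0.79 over 6 genes of oligodendrocyte precursors (3 higher and 1 lower at an unadjusted p under 0.05). It was 0.25 over 10 oligodendrocyte genes (9 positive, 0 at that level) and 0.10 over 10 microglial genes (7 positive, 1 higher at that level). Astrocyte markers went the other way, with a median of -0.16 (0 of 10 positive, 2 lower at that level). Endfoot genes of astrocytes were at -0.11 (3 of 10 positive, 2 lower at that level). The part of these lists in the vascular values was not tested.

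WT (GDX) against WT (sham) asks what the long-term loss of ovarian hormones does. By edgeR's quasi-likelihood test 0 of the 33 members passed, where 86 of 19695 genes did (0.437%). Endothelial genes were centred near no difference, with a median of -0.04 and 9 of 21 positive, and so were the pericyte genes with 0.03, while all genes tested had a median of -0.01 and 48.6% positive. All 3 smooth muscle genes had negative differences, with a median of -1.08. A further list of mural genes, described below, had a median of -0.07, with 6 of 14 genes tested positive. At an unadjusted p under 0.05, 0 of these 14 were lower and 0 higher. The lower values of the 3 smooth muscle genes were therefore not shared by mural genes as a whole. At an unadjusted p under 0.05 stood 1 member that was higher in WT (GDX) (Mfsd2a, where 4.5% of all genes were higher) and 4 that were lower (Vwf, Tagln, Acta2 and Ocln, where 3.48% were lower). Vwf and Acta2 were called lower by DESeq2 (0.296% of all genes), by the exact test (0.3%) and by the likelihood ratio test (0.36%), and Mfsd2a was called higher by the latter pair (0.721% and 0.843%). Without WT (sham) F3, 1 member was called (Vwf). Without WT (sham) F4, 17 of 21 endothelial genes were positive and the endothelial median was 0.46. Without WT (sham) F3 or F1, 6 of 21 were positive each time, with medians of -0.24 and -0.22. Over 10 fibroblast and meningeal genes the median was -0.58 (1 higher and 4 lower at an unadjusted p under 0.05). It was -1.96 over 5 blood genes (3 lower at that level) and -1.96 over 12 choroid plexus genes. Astrocyte markers had a median of 0.29, oligodendrocyte precursors 0.28, oligodendrocytes -0.05, microglia -0.03 and neurons -0.03. The part of these lists in the vascular values was not tested. The 3 WT (sham) mice serve as controls here and for ERβ cKO (sham), so these comparisons are not independent.

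**Figure D2:**
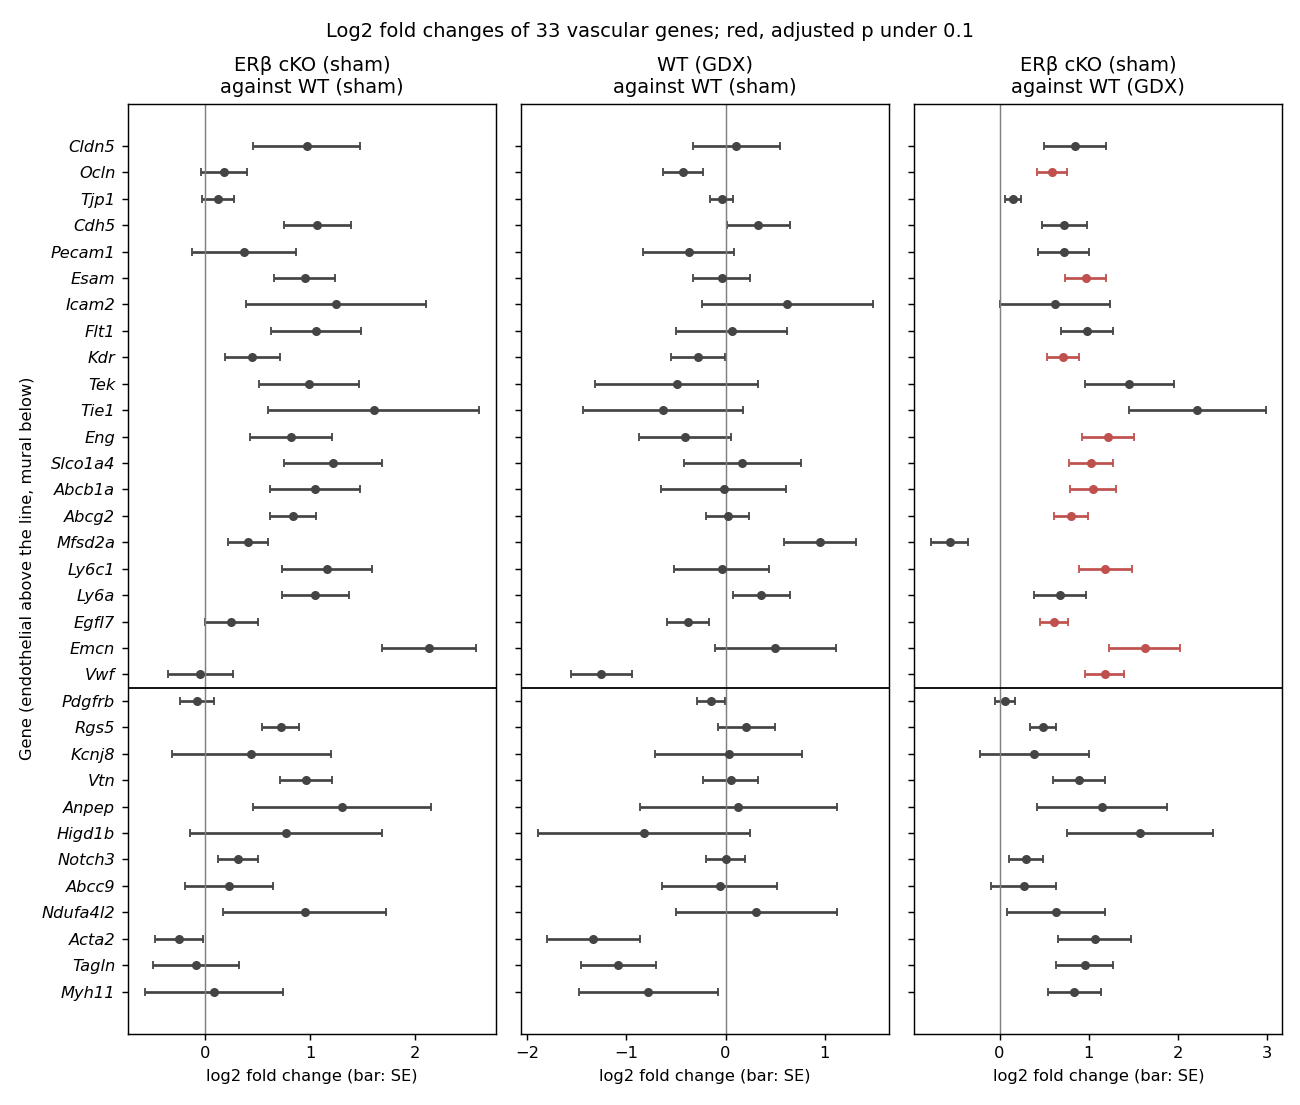
Each point is the log2 fold change of 1 of the 33 genes in 1 of the 3 comparisons, with its SE as the bar and endothelial genes above the line, and red marks an adjusted p under 0.1 in edgeR's quasi-likelihood test. Red points occur only in ERβ cKO (sham) against WT (GDX), where 11 endothelial genes and 0 mural genes were called, and the 3 smooth muscle genes at the bottom lie between -1.33 and -0.78 in WT (GDX) against WT (sham).

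Junction and adhesion genes hold neighbouring endothelial cells together. Esam (ENSMUSG00000001946, chr9:37528078-37538319, + strand) encodes an immunoglobulin-type adhesion molecule of endothelial tight junctions. Taking mice in order of their number here and below, it stood at 7.20, 6.70, 6.58 and 10.4 CPM in ERβ cKO (sham), 5.49, 3.82, 3.27 and 3.0 CPM in WT (GDX), and 3.44, 2.68 and 5.88 CPM in WT (sham). All 4 ERβ cKO (sham) values were above those of both other groups. The log2 fold change was 0.97 (SE 0.23, edgeR adjusted p = 0.0447) against WT (GDX) and 0.95 (SE 0.29, edgeR adjusted p = 0.618) against WT (sham), and -0.04 (SE 0.29) for WT (GDX) against WT (sham).

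Ocln (ENSMUSG00000021638, chr13:100496507-100552718, - strand) encodes occludin, a membrane-spanning tight junction protein, and its window above holds a GC box and an ERE core. Its values were 8.93, 11.6, 9.84 and 8.13 CPM in ERβ cKO (sham), 6.16, 6.33, 5.91 and 6.86 CPM in WT (GDX) and 9.82, 9.20 and 6.40 CPM in WT (sham). ERβ cKO (sham) lay wholly above WT (GDX), and 1 WT (sham) mouse, F4, lay among the gonadectomized mice. The difference between ERβ cKO (sham) and WT (GDX) was 1.51-fold (log2 0.59, SE 0.17, edgeR adjusted p = 0.0787), and WT (GDX) against WT (sham) gave -0.43 (SE 0.20, edgeR adjusted p = 0.595).

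Cdh5, which encodes VE-cadherin of endothelial adherens junctions, was measured at 5.02, 4.13, 5.85 and 7.68 CPM in ERβ cKO (sham), 4.31, 3.94, 2.81 and 2.49 CPM in WT (GDX) and 2.61, 1.69 and 3.78 CPM in WT (sham). ERβ cKO (sham) did not overlap WT (sham) and overlapped WT (GDX) through 1 mouse, F1. Against WT (sham) the log2 fold change was 1.07 (SE 0.32, edgeR adjusted p = 0.61), and against WT (GDX) it was 0.73 (SE 0.25, edgeR adjusted p = 0.134). Tjp1, a junction scaffold that many cell types besides endothelium use, had the highest CPM of the 33 genes, with 105, 104, 104 and 85.1 CPM in ERβ cKO (sham), 84.4, 89.7, 93.7 and 88.2 CPM in WT (GDX) and 72.7, 85.3 and 116 CPM in WT (sham). The 3 groups overlapped, and log2 fold changes lay from -0.04 to 0.15. Cldn5, the claudin that forms most of the barrier's junction strands, ranged from 3.14 to 21.7 CPM over all libraries, Pecam1 from 3.38 to 11.9 CPM and Icam2, another adhesion molecule, from 0.116 to 1.08 CPM, and none of these 3 genes passed in any comparison by the quasi-likelihood test.

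Receptors for the angiogenic factors that guide vessels had the highest median of the endothelial roles in ERβ cKO (sham) against WT (GDX), at 1.22. Eng (ENSMUSG00000026814, chr2:32646595-32682669, + strand) encodes endoglin, a co-receptor for TGF-β family ligands, and its upstream window above holds the ETS motif on each strand. It stood at 10.9, 8.44, 10.5 and 17.3 CPM in ERβ cKO (sham), 6.55, 6.67, 4.36 and 2.55 CPM in WT (GDX) and 3.99, 4.37 and 11.7 CPM in WT (sham). ERβ cKO (sham) was above every WT (GDX) value, and WT (sham) F4 was within the ERβ cKO (sham) range. The difference from WT (GDX) was 2.32-fold (log2 1.22, SE 0.29, edgeR adjusted p = 0.0598), and that from WT (sham) was 0.82 on the log2 scale (SE 0.39, edgeR adjusted p = 0.933).

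Kdr (ENSMUSG00000062960, chr5:75932827-75978458, - strand), the main signalling receptor for VEGF-A, was at 9.48, 10.6, 9.0 and 9.78 CPM in ERβ cKO (sham), 6.16, 7.41, 5.56 and 4.37 CPM in WT (GDX) and 6.43, 4.13 and 10.8 CPM in WT (sham). It was the endothelial gene with the smallest spread among ERβ cKO (sham) mice (SD of log2 CPM 0.10), whose values all exceeded those of WT (GDX). The log2 fold change was 0.71 (SE 0.18, edgeR adjusted p = 0.0598) against WT (GDX) and 0.45 (SE 0.26, edgeR adjusted p = 0.948) against WT (sham). Flt1, a VEGF receptor that acts largely as a decoy, was the most abundant of the receptors in CPM, with 42.3, 59.7, 44.0 and 55.6 CPM in ERβ cKO (sham), 34.7, 34.4, 15.5 and 16.9 CPM in WT (GDX) and 13.6, 16.5 and 42.8 CPM in WT (sham). Its ERβ cKO (sham) and WT (GDX) values did not overlap, but it did not pass (log2 0.98, SE 0.29, edgeR adjusted p = 0.129). Tek, the angiopoietin receptor, ranged from 0.850 to 9.08 CPM over all libraries, and Tie1, its orphan partner receptor, from 0.510 to 20.7 CPM. Tie1 had the largest fitted difference of the 33 genes between ERβ cKO (sham) and WT (GDX) (log2 2.22, SE 0.77, edgeR adjusted p = 0.21), with 371 counts in ERβ cKO (sham) F1, the highest count of the gene, and 9 in the library with the fewest.

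Transporters of the barrier move drugs, anions and lipids across the endothelial cell. Abcg2 (ENSMUSG00000029802, chr6:58584523-58695676, + strand) encodes an efflux pump. It was at 11.2, 12.0, 7.48 and 11.3 CPM in ERβ cKO (sham), 7.61, 5.93, 4.70 and 5.56 CPM in WT (GDX) and 6.04, 5.94 and 5.65 CPM in WT (sham). WT (sham) mice were closely alike for this gene (SD of log2 CPM 0.05), F4 included, and ERβ cKO (sham) values were all higher, while the F4 value of ERβ cKO (sham) fell just under the highest WT (GDX) value. The difference passed against WT (GDX) (log2 0.80, SE 0.19, edgeR adjusted p = 0.0482) and did not against WT (sham) (log2 0.84, SE 0.22, edgeR adjusted p = 0.451), and WT (GDX) against WT (sham) gave 0.02 (SE 0.22).

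Abcb1a (ENSMUSG00000040584, chr5:8660077-8748575, + strand) encodes P-glycoprotein, the best known drug efflux pump of the barrier, and has a close paralogue, Abcb1b, with which short reads may be shared. Its values were 10.5, 13.3, 10.8 and 11.9 CPM in ERβ cKO (sham), 7.67, 7.87, 3.67 and 3.0 CPM in WT (GDX) and 2.38, 3.73 and 10.8 CPM in WT (sham). No WT (GDX) mouse reached the ERβ cKO (sham) range, and of WT (sham) only F4 did. The log2 fold change was 1.05 against both groups, with SE 0.26 and edgeR adjusted p = 0.0653 against WT (GDX), and SE 0.43 and edgeR adjusted p = 0.924 against WT (sham). Slco1a4 (ENSMUSG00000030237, chr6:141805440-141856199, - strand), an organic anion transporter whose upstream window holds 1 ETS motif, was at 23.2, 34.2, 29.1 and 28.8 CPM in ERβ cKO (sham), 20.3, 15.8, 12.5 and 7.37 CPM in WT (GDX) and 6.82, 7.16 and 23.3 CPM in WT (sham). Again no WT (GDX) value reached ERβ cKO (sham), and WT (sham) F4 stood by itself inside that range. The difference from WT (GDX) was 2.04-fold (log2 1.03, SE 0.25, edgeR adjusted p = 0.0733) and from WT (sham) 1.22 on the log2 scale (SE 0.47, edgeR adjusted p = 0.924).

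Mfsd2a (ENSMUSG00000028655, chr4:122946850-122961188, - strand), which carries lysophospholipids with docosahexaenoic acid into the brain and restrains vesicle transport across endothelium, had another pattern. It was highest in WT (GDX), at 61.9, 87.5, 96.7 and 45.9 CPM, against 45.8, 24.3 and 43.0 CPM in WT (sham) and 48.1, 43.8, 58.2 and 49.6 CPM in ERβ cKO (sham). WT (GDX) and WT (sham) did not overlap, with nearest values of 45.9 and 45.8 CPM, as was so for 5.09% of all genes in that direction. The difference did not pass (log2 0.95, SE 0.36, edgeR adjusted p = 0.594), and ERβ cKO (sham) against WT (GDX) gave -0.56 (SE 0.21, edgeR adjusted p = 0.203), which was the only negative value of the 33 genes in that comparison. Mfsd2a was called lower in ERβ cKO (sham) by DESeq2 (4.95% of all genes), by the exact test (3.29%) and by the likelihood ratio test (3.5%). The quasi-likelihood test called it lower too without WT (GDX) F4. Astrocyte markers had medians of 0.29 in WT (GDX) against WT (sham) and -0.48 in ERβ cKO (sham) against WT (GDX). In ERβ cKO (sham) against WT (sham) their median was -0.16, whereas Mfsd2a had a positive difference. Which cells the Mfsd2a RNA came from was not tested.

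Surface and secreted proteins of endothelium included the member with the smallest p. Vwf (ENSMUSG00000001930, chr6:125546774-125686679, + strand) encodes von Willebrand factor, which is stored in endothelial granules and binds platelets at injured vessel walls. It stood at 9.60, 10.1, 10.3 and 6.37 CPM in ERβ cKO (sham), 2.69, 4.79, 4.01 and 4.42 CPM in WT (GDX) and 9.21, 4.66 and 14.4 CPM in WT (sham). WT (GDX) was the low group, wholly below ERβ cKO (sham) and overlapping WT (sham) through F3. Vwf was 2.27-fold higher in ERβ cKO (sham) than in WT (GDX) (log2 1.18, SE 0.22, edgeR adjusted p = 0.0162) and was still called when any 1 of the 8 libraries was left out. It did not pass in WT (GDX) against WT (sham) (log2 -1.25, SE 0.31, edgeR adjusted p = 0.154) and was at -0.05 (SE 0.31) in ERβ cKO (sham) against WT (sham), the only endothelial gene with a negative value there.

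Emcn (ENSMUSG00000054690, chr3:137341067-137432185, + strand) encodes endomucin, a mucin-like surface protein of veins and capillaries, and was counted 7 to 68 times per library. It was at 1.62, 2.97, 2.70 and 3.87 CPM in ERβ cKO (sham), 1.57, 1.03, 0.401 and 0.567 CPM in WT (GDX) and 0.665, 0.408 and 0.815 CPM in WT (sham). All ERβ cKO (sham) values were above both other groups, and here WT (sham) F4 was not. The difference was 3.08-fold from WT (GDX) (log2 1.63, SE 0.40, edgeR adjusted p = 0.0562) and 4.39-fold from WT (sham) (log2 2.14, SE 0.45, edgeR adjusted p = 0.171), the largest of the 33 genes in the latter comparison.

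Egfl7 (ENSMUSG00000026921, chr2:26580014-26593120, + strand), a matrix protein secreted by endothelium, was at 14.7, 15, 15.7 and 23.0 CPM in ERβ cKO (sham), 12.3, 12.0, 9.29 and 10.8 CPM in WT (GDX) and 15.1, 8.5 and 19.6 CPM in WT (sham). ERβ cKO (sham) lay above WT (GDX) without overlap, and WT (sham) spanned both. The log2 fold change was 0.61 (SE 0.16, edgeR adjusted p = 0.0709) against WT (GDX) and 0.25 (SE 0.25, edgeR adjusted p = 0.97) against WT (sham), and WT (GDX) against WT (sham) gave -0.38 (SE 0.21, edgeR adjusted p = 0.715). Ly6c1 and Ly6a encode GPI-anchored surface proteins of a family of related genes on chromosome 15, so reads may be shared between close relatives. Ly6c1 (ENSMUSG00000079018, chr15:75044018-75048830, - strand) was at 6.36, 11.1, 9.28 and 14.5 CPM in ERβ cKO (sham), 6.94, 5.25, 2.92 and 2.83 CPM in WT (GDX) and 2.44, 3.03 and 8.38 CPM in WT (sham). The groups overlapped through ERβ cKO (sham) F1, and the difference from WT (GDX) passed (log2 1.19, SE 0.30, edgeR adjusted p = 0.0733). Ly6a stood at 5.19, 9.43, 4.72 and 10.4 CPM in ERβ cKO (sham), 5.32, 6.39, 2.87 and 3.86 CPM in WT (GDX) and 3.55, 2.5 and 4.71 CPM in WT (sham). ERβ cKO (sham) was narrowly above WT (sham) and overlapped WT (GDX), and neither difference passed (log2 1.05, SE 0.32, edgeR adjusted p = 0.618 and log2 0.68, SE 0.29, edgeR adjusted p = 0.244).

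**Figure D3:**
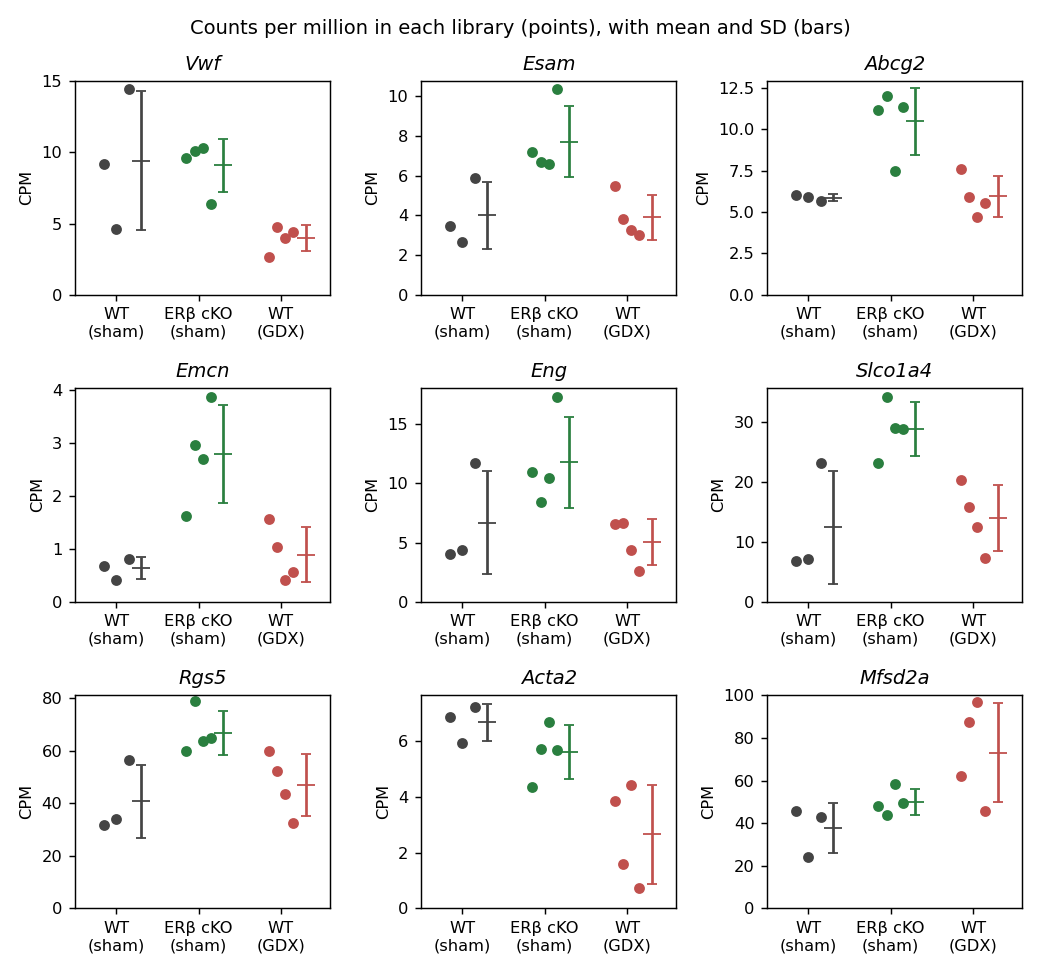
Points are CPM in single libraries for 9 genes, by group, and the bars beside them give the mean and SD of each group. Esam and Emcn are higher in all 4 ERβ cKO (sham) libraries than in both other groups, Vwf and Acta2 have their lowest mean in WT (GDX), and Mfsd2a has its highest there, with 1 WT (sham) point, F4, standing high for Eng (11.7 CPM) and Slco1a4 (23.3 CPM).

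Pericyte genes were not called in any comparison by edgeR's quasi-likelihood test, and Rgs5 and Vtn came closest. Rgs5 (ENSMUSG00000026678, chr1:169655501-169695813, + strand) encodes a regulator that turns off G protein signals and is a standard marker of brain pericytes. It was at 59.9, 78.8, 63.8 and 65.0 CPM in ERβ cKO (sham), 60.1, 52.2, 43.6 and 32.6 CPM in WT (GDX) and 31.6, 34.0 and 56.7 CPM in WT (sham). ERβ cKO (sham) was wholly above WT (sham) and overlapped WT (GDX) only at its lowest mouse. The log2 fold change was 0.72 (SE 0.18, edgeR adjusted p = 0.451) against WT (sham) and 0.49 (SE 0.15, edgeR adjusted p = 0.119) against WT (GDX). Vtn, which encodes the adhesive matrix protein vitronectin, was at 11.4, 14.3, 7.25 and 14.3 CPM in ERβ cKO (sham), 9.69, 6.84, 5.33 and 3.40 CPM in WT (GDX) and 5.49, 5.01 and 7.80 CPM in WT (sham). All groups overlapped, and its log2 fold change was 0.96 (SE 0.25, edgeR adjusted p = 0.451) against WT (sham) and 0.89 (SE 0.29, edgeR adjusted p = 0.131) against WT (GDX).

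Pdgfrb and Notch3 are the receptors that pericytes and smooth muscle use to receive endothelial PDGF-B and Notch signals. Pdgfrb was at 24.7, 24.0, 23.8 and 24.1 CPM in ERβ cKO (sham), 24.0, 21.5, 24.3 and 22.3 CPM in WT (GDX) and 22.3, 20.7 and 33.5 CPM in WT (sham). It was the mural gene with the smallest spread in ERβ cKO (sham) (SD of log2 CPM 0.02) and also in WT (GDX) (0.08), and its log2 fold changes were -0.08 (SE 0.16) against WT (sham) and 0.06 (SE 0.11) against WT (GDX). Notch3 was at 10.3, 10.5, 13.2 and 10.1 CPM in ERβ cKO (sham), 10.1, 10.8, 8.89 and 5.78 CPM in WT (GDX) and 8.54, 8.33 and 9.78 CPM in WT (sham), with log2 fold changes of 0.31 (SE 0.19) against WT (sham) and 0.30 (SE 0.19) against WT (GDX). Neither receptor gene passed in any comparison. Kcnj8 and Abcc9, neighbours on chromosome 6 that encode the pore and the regulatory subunit of the vascular ATP-sensitive potassium channel, ranged from 0.166 to 1.76 CPM and from 0.624 to 4.42 CPM. Anpep, a surface peptidase, Higd1b and Ndufa4l2, which encode mitochondrial proteins, stayed at or below 1.22 CPM in every library, with at most 21 counts, so that differences between groups were hardly detectable at this depth. Across the 3 comparisons, the edgeR adjusted p values of these 5 genes were 0.342 or more.

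Smooth muscle genes encode the contractile apparatus of arterioles. Acta2 (ENSMUSG00000035783, chr19:34241090-34255590, - strand), smooth muscle actin, shares coding sequence with other actin genes. It was at 6.88, 5.94 and 7.22 CPM in WT (sham), 3.86, 1.60, 4.41 and 0.737 CPM in WT (GDX) and 4.35, 5.71, 6.69 and 5.69 CPM in ERβ cKO (sham). All WT (GDX) values were below WT (sham), where 3.34% of all genes were lower without overlap, and F2 and F4 of WT (GDX) were the lowest, the latter with 13 counts. The difference of WT (GDX) from WT (sham) did not pass (log2 -1.33, SE 0.47, edgeR adjusted p = 0.471), nor did that of ERβ cKO (sham) from WT (GDX) (log2 1.07, SE 0.41, edgeR adjusted p = 0.207).

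Tagln, the actin-binding protein transgelin, was at 3.94, 1.34 and 5.06 CPM in WT (sham), 1.18, 1.54, 2.01 and 1.81 CPM in WT (GDX) and 3.85, 3.84, 1.52 and 3.70 CPM in ERβ cKO (sham). WT (sham) F3 and ERβ cKO (sham) F4 lay within the range of WT (GDX). Its log2 fold change was -1.08 (SE 0.38, edgeR adjusted p = 0.37) for WT (GDX) against WT (sham) and 0.96 (SE 0.32, edgeR adjusted p = 0.126) for ERβ cKO (sham) against WT (GDX). Myh11, smooth muscle myosin, had the largest spread of all mural genes in WT (sham) (SD of log2 CPM 1.70), with 5.05, 0.815 and 8.73 CPM, against 3.98, 1.77, 3.33 and 2.27 CPM in WT (GDX) and 3.74, 7.69, 5.68 and 3.47 CPM in ERβ cKO (sham). The 3 groups overlapped. WT (sham) F3 had the lowest value of its group for all 3 smooth muscle genes and F4 the highest. ERβ cKO (sham) differed little from WT (sham) in these genes, with log2 fold changes of -0.25, -0.09 and 0.08 for Acta2, Tagln and Myh11.

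Other genes of the vessel wall were read from the same fits. Of 25 further endothelial genes 6 were higher in ERβ cKO (sham) than in WT (GDX) and 0 were lower, with a median log2 fold change of 0.64: Podxl, a sialomucin of the luminal surface (0.64, SE 0.14, edgeR adjusted p = 0.0349), Nos3, the endothelial nitric oxide synthase (0.93, SE 0.23, edgeR adjusted p = 0.0529), Itm2a (0.72), Slc22a8, an organic anion transporter (1.22), Ptprb, a phosphatase that acts on the angiopoietin receptor (1.02), and Sox18, an endothelial transcription factor (0.90). Over all genes 1.93% were called higher in this comparison and 2.22% lower. At an unadjusted p under 0.05, 11 of the 25 were higher, against 8.82% of all genes, and 2 were lower, Ramp2 (-0.24) and Slc16a1 (-0.22), where 1651 of the 19759 genes tested were lower. None of these 25 was called in the other comparisons by edgeR's quasi-likelihood test, where DESeq2 called 0 as well. At the same unadjusted level, 10 were higher in ERβ cKO (sham) than in WT (sham), against 3.24% of all genes, and 2 of 25 in WT (GDX) than in WT (sham), against 4.5%. Of 15 further mural genes tested, 1 was higher in ERβ cKO (sham) than in WT (GDX): Cspg4 (0.63, SE 0.16, edgeR adjusted p = 0.0539), which marks oligodendrocyte precursors as well as pericytes. The median of these 15 was 0.63, with 12 positive, and 5 were higher and 1 lower at an unadjusted p under 0.05. In ERβ cKO (sham) against WT (sham) it was 0.66, with 12 of 15 positive, 2 higher and 1 lower at that level. Among 17 ligands, Notch receptors and Notch targets 1 was higher in that comparison, the Notch ligand Jag2 (0.51, SE 0.13, edgeR adjusted p = 0.0598). Of 14 genes of the barrier's Wnt pathway 1 was lower, Tspan12, a co-activator of the norrin receptor (-0.62, SE 0.13, edgeR adjusted p = 0.0241).

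**Figure D4:**
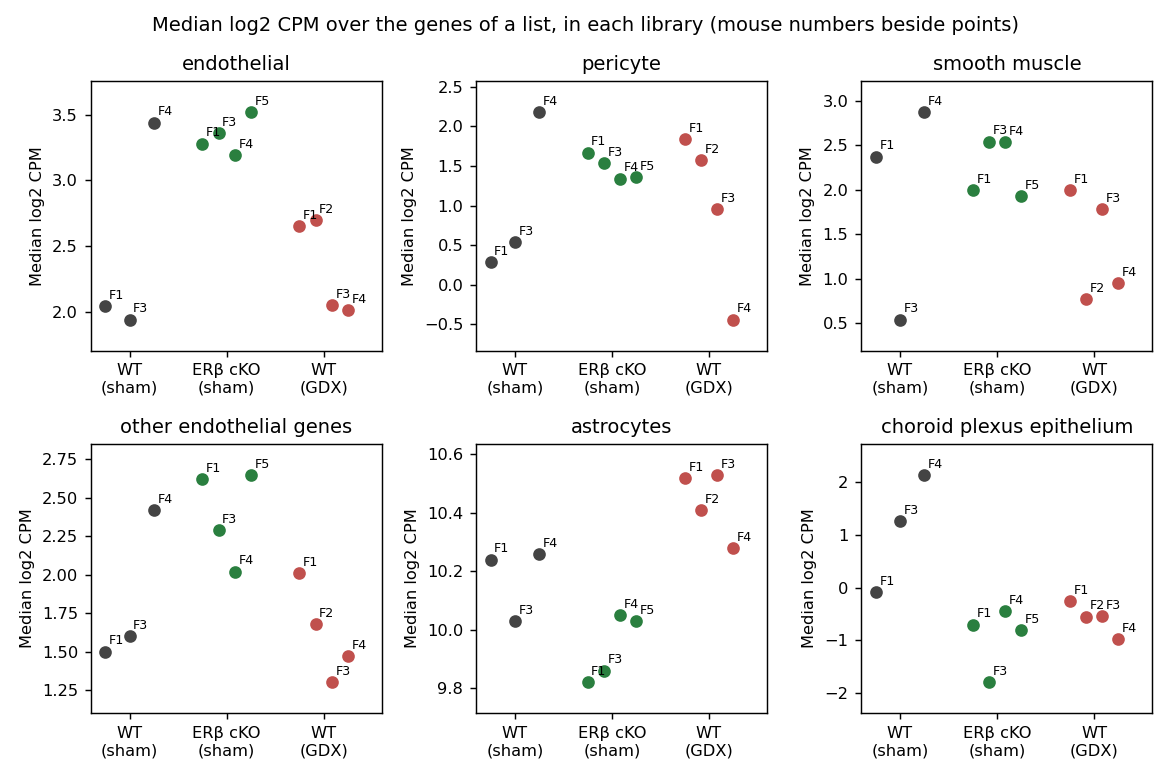
Each point is the median log2 CPM over the genes of 1 list in 1 library, with the mouse number beside it, for 6 lists, and each panel has its own vertical scale. The endothelial medians of ERβ cKO (sham) lie between 3.19 and 3.52 and those of WT (GDX) between 2.01 and 2.70, WT (sham) F4 stands with ERβ cKO (sham) at 3.44, and the astrocyte panel has WT (GDX) highest, between 10.28 and 10.53.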

How the data were processed

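The authors immunoprecipitated HA-tagged ribosomes from hippocampus, made libraries with a stranded kit and sequenced single-end reads. Per the submitters' notes and the study's methods, reads were separated with bcl2fastq 2.17, checked with FastQC, cleaned with Trimmomatic, aligned to mm10 and counted per gene with QuasR. The strand setting of the counting is not given in the sources used here, so overlapping genes on opposite strands may share reads. What was deposited is a table of unnormalized whole-number counts, made by the authors for each Ensembl gene in 11 libraries of 16956233 to 18190968 counts. GENCODE M21 named 37607 of 39017 identifiers, and the 1410 unnamed ones, which hold 0.515% of the counts, stayed in the fits.

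A gene was dropped from a comparison when more than 3 of its libraries had a count below 1, after the study's own filter. Each pair of groups was fitted in edgeR 4.0.16 (R 4.3.3) with TMM scaling, a robust quasi-likelihood fit and its test, with Benjamini-Hochberg adjustment over all genes tested and a threshold of 0.1. CPM are counts per 1000000 of the TMM-scaled library size (for log2 CPM with 2 as the prior count), and the SE is the log2 fold change divided by the square root of F. Alternatives were the exact and the likelihood ratio test of edgeR, DESeq2 1.42.0, other scalings and filters, all 3 groups in 1 fit, a replicate block and each library left out. The tests were tested on simulated data. Each p-value sets a group difference against the spread between these mice, which the fit estimates partly from the other genes. The 33 members and the other gene lists were chosen with earlier results of these data known. Values in every library are given for members called in any comparison, those with the smallest p (8, 6 and 4 in the 3 comparisons), the 3 endothelial and 3 mural genes highest in CPM and the smooth muscle genes, and up to 4 genes with the smallest p are named from the other lists, apart from genes named to complete a count, which were chosen after their values were seen.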

Additional observations from a re-analysis of the deposited data

Results flagged for a closer look

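Of 66 sets of 4 libraries (33 genes, each in the 2 groups with 4 mice), 7 held a library whose gap to its nearest neighbour was over 0.829 of the range. All 7 were in ERβ cKO (sham). That cut-off flags about 1 in 20 independent sets of normally distributed values. These sets were unlogged CPM of genes read in the same libraries, so the 7 cannot be set against that rate. ERβ cKO (sham) F5 was far above its group for Cldn5 (21.7 CPM, next 10.3), Esam (10.4, next 7.20) and Egfl7 (23.0, next 15.7) and below it for Tjp1 (85.1, next 103.6). ERβ cKO (sham) F1 was high for Tie1, at 20.7 CPM with the next at 5.92. ERβ cKO (sham) F4 was high for Notch3 (13.2 CPM, next 10.5) and low for Tagln (1.52 CPM, next 3.70). Without ERβ cKO (sham) F5, Esam and Egfl7 were still called higher than in WT (GDX).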

How the results depend on the processing

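Scaling by DESeq2 size factors or by library size alone changed no count of members called. For ERβ cKO (sham) against WT (sham), genes called were 39 with no filter, 52 by DESeq2, 57 by the exact test, 100 by the likelihood ratio test and 16 with all 3 groups in 1 fit, and 7 to 67 when each library was left out in turn. Members called were 1, 3, 2, 4 and 0, and 0 to 9. In WT (GDX) against WT (sham) genes called were 289 with no filter, 53 with filterByExpr, 206, 201 and 237 by the same 3 tests, 25 with all groups in 1 fit, 36 at a threshold of 0.05 and 11 to 275 with each library left out, and members called were 2 with no filter, 2, 3 and 3 by those tests and 0 to 1. In ERβ cKO (sham) against WT (GDX) genes called were 1628, 1372 and 1473 by those tests, 229 at a threshold of 0.05 and 104 to 2450 with each library left out, and members called were 21, 19 and 21 by those tests, 5 with all groups in 1 fit, 3 at 0.05 and 1 to 14. Leaving out 1 library at a time, the endothelial median ran from 0.74 to 1.39, from -0.24 to 0.46 and from 0.75 to 1.0 in these 3 comparisons, and the mural median from 0.21 to 1.09, from -0.31 to 0.13 and from 0.64 to 0.81. No called value changed sign. A replicate block on mouse number, which keeps only F1, F3 and F4 of each group, called 81, 85 and 3100 genes and 0, 1 and 14 members. The labels do not say that a number marks a shared litter or day, and same-numbered mice deviated together with correlations of -0.208 to 0.158 over 16224 genes, so the numbers were not taken to pair mice. Members with few counts (Higd1b, Anpep, Icam2 and Ndufa4l2, none above 21 counts) limit what can be seen, since counting error alone is large there. The cause of these dependences was not tested.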

Other observations

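Of 12 choroid plexus genes tested, which belong to an epithelium next to the hippocampus, 6 were lower in WT (GDX) than in WT (sham) and 3 were lower in ERβ cKO (sham), and 0 were higher in either, where 22 of 19695 and 3 of 19938 genes in all were called lower. Ciliated ependymal genes had a median log2 fold change of -0.94 for ERβ cKO (sham) and -0.83 for WT (GDX), each against WT (sham), with Drc7 called in WT (GDX) against WT (sham) (-2.04, SE 0.39, edgeR adjusted p = 0.0276). Of 10 endfoot genes of astrocytes, which face the vessels, 4 passed the threshold when ERβ cKO (sham) was set against WT (GDX): the water channel gene Aqp4 (-0.56, SE 0.12, edgeR adjusted p = 0.027), Hepacam (-0.47, SE 0.10, edgeR adjusted p = 0.027) and Mlc1 (-0.44, SE 0.12, edgeR adjusted p = 0.082) were lower in ERβ cKO (sham), and Agrn, which encodes the basement membrane protein agrin, was higher (0.36, SE 0.10, edgeR adjusted p = 0.0809), where 2.22% of all genes were called lower and 1.93% higher. Among fibroblast and meningeal genes Col1a1 and Mgp were higher in ERβ cKO (sham) than in WT (GDX) (1.02 each, SE 0.30 each, edgeR adjusted p = 0.0864 and 0.092) and Igfbp2 was lower (-0.49, SE 0.12, edgeR adjusted p = 0.0518).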
